A study of Mus musculus with 6 samples.

Results

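The glutathione S-transferases of the colon were followed here as 10 genes, Gsta2, Gsta3, Gsta4, Gstm1, Gstm2, Gstm3, Gstp1, Gstk1, Gsto1 and Gstt1, out of 18193 genes measured. Each gene was read from the probe sets that carry its symbol and no other, which gave 16 probe sets out of 45037, and the probe set with the highest mean over the 6 arrays stood for the gene. RNA came from the proximal colon of 3 Hnf4α mutant mice and 3 control mice, each hybridised to an Affymetrix whole-genome array of its own. The mutants carried Hnf4α loxP-loxP alleles and a Cre transgene under the Villin promoter, which is active in the intestinal epithelium, so that Cre acts in epithelial cells, while the RNA was that of whole tissue with its muscle, stroma and immune cells. The controls were littermates labelled wildtype, and the labels do not say whether they carried Cre or floxed alleles. All 6 animals were 1 year of age, were kept in a pathogen free environment and received ketamine (300 mg/kg) and xylazine (40 mg/kg) before sacrifice.

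Glutathione S-transferases join the tripeptide glutathione to reactive molecules, among them drugs, dietary compounds and products of lipid peroxidation, which the cell then exports. The cytosolic enzymes fall into classes by their sequences, alpha, mu, pi, omega and theta among them, and the kappa enzyme is found in mitochondria and peroxisomes. Many of their genes are known to respond to the transcription factor NRF2, which binds an antioxidant response element, and some are known to be expressed at different levels in the livers of male and female mice.

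One promoter among these genes held the core of that element, that of Gsta3, and it is printed for that match. The sequences are those of RefSeq on the GRCm38.p6 build and run from 250 bases before to 50 bases after each transcription start. Of the 10 genes 9 had a promoter there. Gsta4 had none, so its promoter was not searched for either motif. The core TGACNNNGC was searched on both strands and is in capitals. It was present in 1 of these 9 genes (Gsta3), and in 14.0% of 27025 genes with a promoter in the same table. In Gsta3 (chr1:21240335-21240634, plus strand) the match began at position -121 relative to the start site. An HNF4 motif, CAAAGTCCA, was found in none of the 9 on either strand and in 0.555% of all genes. No match says only that these letters are not in this window.
Gsta3: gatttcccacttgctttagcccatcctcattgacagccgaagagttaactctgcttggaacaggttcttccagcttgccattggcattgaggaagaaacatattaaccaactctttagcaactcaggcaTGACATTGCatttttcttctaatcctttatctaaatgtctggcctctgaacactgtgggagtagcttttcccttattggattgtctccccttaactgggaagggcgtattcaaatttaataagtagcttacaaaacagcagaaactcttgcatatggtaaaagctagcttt

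The core was also present in the promoters of 3 other transferase genes whose RNA is given further on, and 49 bases around each of these 3 matches are printed. With these, 4 of 25 transferase promoters (16%) held it, near the 14.0% of all genes with a promoter. Gstm5 and Gstm7 are mu class genes that neighbour Gstm1, Gstm2 and Gstm3, and Mgst1 encodes a microsomal transferase. The Gstm5 window (chr3:107895792-107895840, plus strand, same build) has its match at position -42 relative to the start site, and the Gstm7 window (chr3:107931715-107931763, minus strand) has it at position -129. The Mgst1 window (chr6:138140451-138140499, plus strand) has it on the reverse strand, at position -56. Of the 7 mu class genes, Gstm5 and Gstm7 were the 2 with a match.
Gstm5: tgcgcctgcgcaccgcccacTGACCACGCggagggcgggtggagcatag
Gstm7: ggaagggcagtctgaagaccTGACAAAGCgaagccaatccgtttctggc
Mgst1: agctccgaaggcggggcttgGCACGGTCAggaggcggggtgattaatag

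Hnf4a was lower in every mutant, and 1 array did not match its labelled sex. Hnf4a had a log2 signal of 10.17, 10.09 and 10.15 in mutant replicates 1, 2 and 3, against 12.23, 12.01 and 11.97 in control replicates 1, 2 and 3, a log2 difference of -1.94 with an SE of 0.10 (adjusted p = 0.000788). Mutant replicate 1 and the controls are labelled female and the other mutants male, but Xist, which is transcribed from the inactive X chromosome, was between 5.03 and 5.32 in the mutants and between 9.94 and 10.96 in the controls, and the Y-linked Eif2s3y was between 7.85 and 8.12 in the mutants and between 2.75 and 3.16 in the controls. The RNA of every mutant was thus that of a male and the RNA of every control that of a female, and for each transferase below genotype and sex cannot be told apart. Markers of gut epithelium (10 of 10 measured) had a median shift of 0.05 to 0.20 log2 units in the mutants and of -0.05 to 0.06 in the controls, and their summed linear signal was 78848 to 86191 in mutants and 72182 to 79938 in controls. Of these 10 markers 7 had positive log2 fold changes and 3 negative ones, from -0.49 to 0.75. Of 6 colonocyte markers 3 were positive and 3 negative, from -2.71 to 3.45. Mutant replicate 2 stood apart, with a median shift of -3.84 over 10 of 10 smooth muscle markers and of -3.45 over 10 of 10 fibroblast and matrix markers, while the other mutants were at -0.46 or above. The summed linear signal of the smooth muscle list was 2592 to 30939 in mutants and 34873 to 38272 in controls, that of the fibroblast list was 1347 to 10434 in mutants and 9918 to 12966 in controls, and no marker of either list was at background. Other lists moved as well. The macrophage median was at -1.70 in mutant replicate 2, at -0.25 and -0.11 in mutant replicates 1 and 3, and at -0.19 to 0.25 in the controls. Of the 8 macrophage markers 2 had positive log2 fold changes and 6 negative ones. The endothelium median was at -1.49 in mutant replicate 2, and at -0.22 and -0.57 in mutant replicates 1 and 3. Neutrophil markers (5 of 6 measured, all 5 positive) had medians of 0.15 to 0.34 in the mutants and of -0.10 to 0.14 in the controls. B and plasma cell markers (5 of 6 measured) had medians of -1.05 to -0.68 in the mutants and of -0.58 to 0.41 in the controls, and their summed linear signal was 647 to 4282 in mutants and 6561 to 10546 in controls. The part of these shifts in the values below was not tested. In whole tissue, fewer cells of a type and less RNA per cell cannot be told apart.

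**Figure D1:**
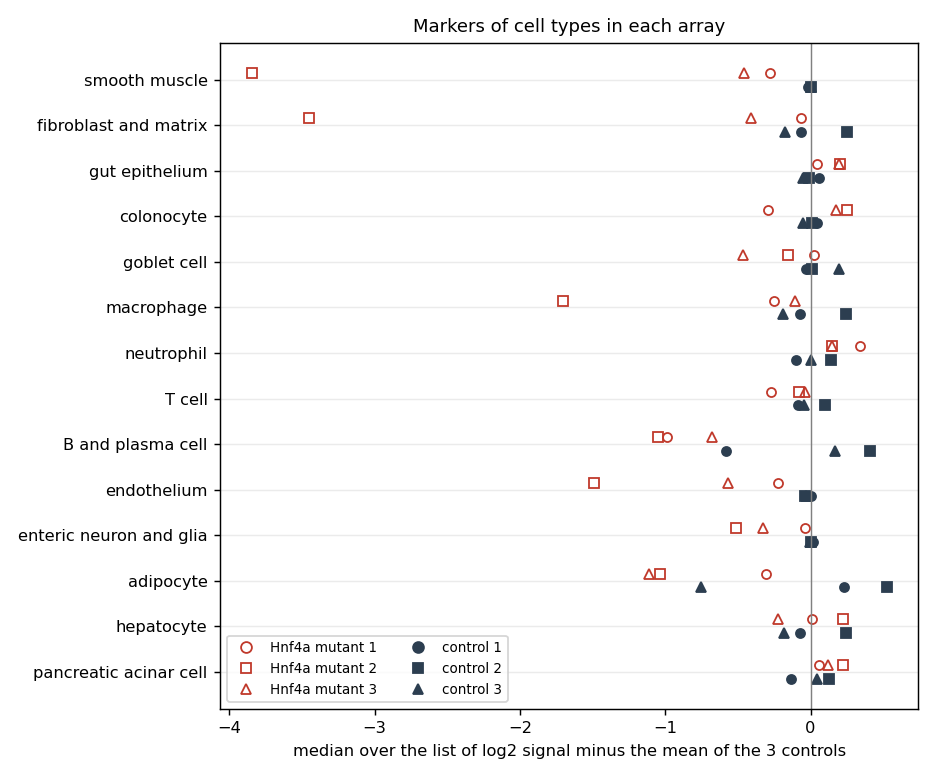
Median of each cell type marker list in each array (the horizontal axis gives the log2 signal after subtraction of the control mean, open symbols are Hnf4a mutants, filled symbols are controls, the symbol shape gives the replicate, and each list has 1 row with mutants above controls). Mutant replicate 2 lies at -3.84 for smooth muscle and -3.45 for fibroblast and matrix, apart from the other arrays, while gut epithelium lies between -0.05 and 0.20 in every array.

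None of the 10 genes passed the test between mutants and controls in either direction (limma, adjusted p under 0.05). Across all genes 0.484% rose and 0.396% fell at this threshold. Before adjustment, at p of 0.05 or less, 2 genes passed, Gsta4 and Gstm1, both higher in the mutants. Of all genes 16.2% passed at that level in either direction, 1822 of them higher and 1124 lower. SAM, the test named in the study's methods and computed here with separate code, also gave 2 of the 10 as higher at that level, Gsta4 and Gstm1. The study's own list of changed transcripts also set a threshold on the ratio, which was not applied here. The ratio of mutants over controls was 2.55 for Gsta4 and 1.33 for Gstm1. The log2 fold changes were positive for 8 of the 10 genes and negative for Gsta2 and Gsto1, with a median of 0.30. Over all genes 60.4% were positive and the median was 0.05. All 3 mutants lay above all 3 controls for Gsta4, Gstm1 and Gstp1, as they did for 14.5% of all genes, and none of the 10 genes had all mutants below all controls, as 8.86% of all genes had. Median log2 signals of whole arrays were between 5.43 and 5.53.

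**Figure D2:**
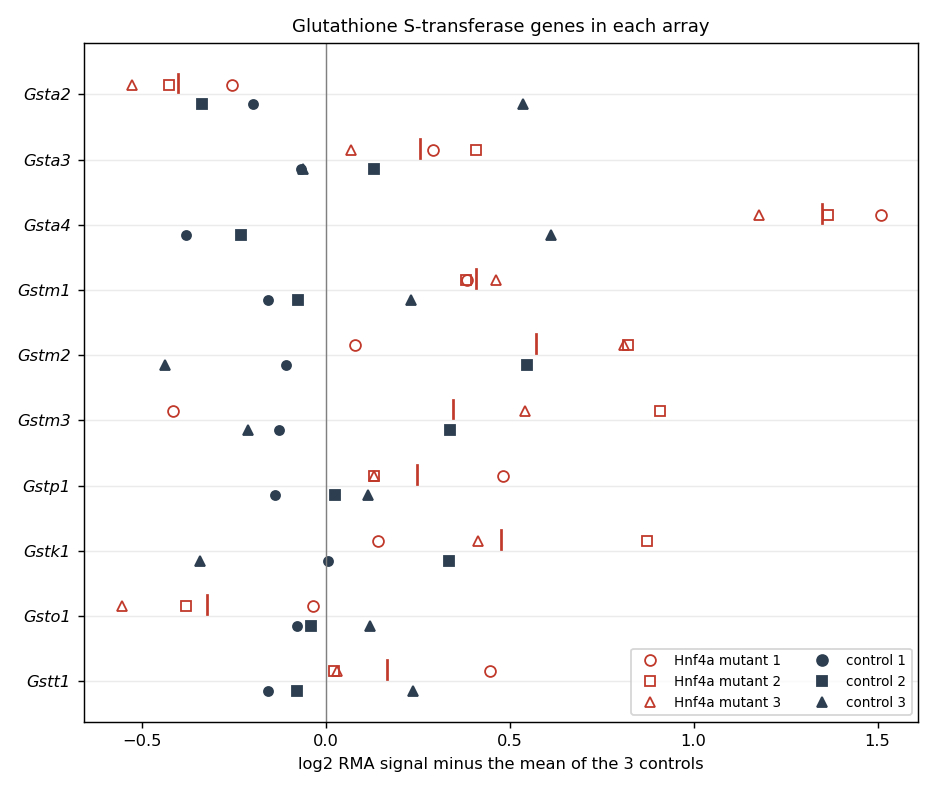
The 10 transferase genes in each array (the horizontal axis gives the log2 signal after subtraction of the control mean, open symbols are Hnf4a mutants, filled symbols are controls, the symbol shape gives the replicate, and the vertical bar is the mean of the mutants). Gsta4 is furthest to the right, at 1.35, and its highest control is replicate 3, while the groups overlap for 7 of the 10 genes.

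Among the alpha class genes, Gsta4 had the widest difference of the 10. Gsta4 encodes the enzyme that conjugates 4-hydroxynonenal, an aldehyde made when membrane lipids are oxidised. Its log2 signal was 11.21, 11.07 and 10.88 in mutant replicates 1, 2 and 3, against 9.32, 9.47 and 10.32 in control replicates 1, 2 and 3. The lowest mutant lay 0.57 above the highest control, which was replicate 3, and the other controls lay close together. The means were 11.05 ± 0.17 in mutants and 9.70 ± 0.53 in controls (SD, n = 3 each), a log2 difference of 1.35 with an SE of 0.26 (adjusted p = 0.0986), or a ratio of 2.55 with a 95% interval of 1.66 to 3.91. Without control replicate 3 the log2 fold change was 1.66 and the gene passed the test (adjusted p = 0.0207), and without each of the other arrays it was between 1.16 and 1.44 and the gene did not pass (adjusted p between 0.116 and 0.308). Only 1 probe set carried the symbol.

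Gsta3 differed by much less. In mice its product inactivates the epoxide of aflatoxin B1, and it is the gene whose promoter is printed above. Its log2 signal was 6.43, 6.55 and 6.21 in the mutants, against 6.07, 6.27 and 6.08 in the controls. Mutant replicate 3 lay below control replicate 2, so that the groups overlapped. With limma the groups differed by 0.26 on the log2 scale with an SE of 0.12 (adjusted p = 0.430), and a less intense probe set gave 0.29 (adjusted p = 0.395).

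Gsta2, another alpha class enzyme, was near background on the probe set that carries its symbol alone. Its log2 signal was 3.93, 3.76 and 3.65 in the mutants, against 3.98, 3.84 and 4.72 in the controls. Y-linked genes, which female tissue does not transcribe, read between 2.75 and 4.01 in the controls, and every value of Gsta2 but that of control replicate 3 lay inside that range. The log2 fold change of -0.40 (SE 0.23, adjusted p = 0.489) was -0.14 without that control. A second alpha class probe set, annotated to Gsta1, Gsta2 and Gm3776 together and therefore assigned to none of them, read 8.72, 8.60 and 7.70 in the mutants, against 9.55, 10.06 and 9.93 in the controls. All of its mutant values lay below all of its control values, by 0.83 at the nearest, with a log2 difference of -1.50 (SE 0.28, adjusted p = 0.0951), and which of the 3 genes it measured was not tested.

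The mu class genes Gstm1, Gstm2 and Gstm3 had positive log2 fold changes. Gstm1, a cytosolic enzyme of wide substrate range, had the smallest spread of the 3, with 11.09, 11.08 and 11.17 in the mutants, against 10.55, 10.63 and 10.94 in the controls. Every mutant lay above every control, by 0.15 at the nearest. The difference by limma was 0.41 on the log2 scale with an SE of 0.12 (adjusted p = 0.257), a ratio of 1.33 with a 95% interval of 1.08 to 1.63. Of its 4 probe sets, 3 had all mutants above all controls, and the log2 fold changes of the 4 were between 0.24 and 0.41. By the array maker's naming, 2 of the 4, the probe set used among them, hold probes that can match related transcripts.

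For Gstm2 and Gstm3 the range within each group was wider than the difference between the means. Gstm2 read 9.39, 10.13 and 10.12 in mutant replicates 1, 2 and 3, against 9.20, 9.85 and 8.87 in control replicates 1, 2 and 3, a log2 difference of 0.57 with an SE of 0.30 (adjusted p = 0.463). Gstm3 read 9.15, 10.48 and 10.11 in the mutants, against 9.44, 9.91 and 9.36 in the controls, a log2 difference of 0.35 with an SE of 0.34 (adjusted p = 0.682). Mutant replicate 1 was low for both genes, below all controls for Gstm3 and below control replicate 2 for Gstm2. Without mutant replicate 2, whose muscle and matrix markers were low, Gstm3 was at 0.06 and Gstm2 at 0.44, and without mutant replicate 1 they were at 0.73 and 0.82. With controls left out, Gstm2 was lowest, at 0.35, without control replicate 3 and highest, at 0.84, without control replicate 2. The second probe set of Gstm3 gave 0.45 (adjusted p = 0.479). By the array maker's naming, the probe set used for Gstm3 also holds probes that can match related transcripts, and the second one is not marked so.

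Gstp1, of the pi class, which also binds and restrains the kinase JNK, read 13.44, 13.09 and 13.09 in the mutants, against 12.82, 12.98 and 13.07 in the controls. The groups did not overlap, but mutant replicates 2 and 3 lay only 0.02 above control replicate 3. With limma the groups differed by 0.25 on the log2 scale with an SE of 0.13 (adjusted p = 0.471), a ratio of 1.19 with a 95% interval of 0.953 to 1.48. Without mutant replicate 1, the highest array, the difference was 0.13. The neighbouring Gstp2 is nearly identical in sequence and had no probe set of its own here, so that signal from it cannot be told apart from that of Gstp1.

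Gstk1, the kappa class enzyme of mitochondria and peroxisomes, read 10.51, 11.24 and 10.78 in the mutants, against 10.37, 10.70 and 10.03 in the controls. Mutant replicate 1 lay below control replicate 2. The mutants and controls differed by 0.48 on the log2 scale with an SE of 0.23 (adjusted p = 0.441), by 0.28 without mutant replicate 2 and by 0.30 without control replicate 3.

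Gsto1, of the omega class, acts as a thioltransferase and reduces dehydroascorbate, and it was the abundant gene of the set with a negative value. It read 12.35, 12.00 and 11.82 in the mutants, against 12.30, 12.34 and 12.50 in the controls. Mutant replicate 1 lay within the controls and the other mutants below them. The estimated difference was -0.32 on the log2 scale with an SE of 0.15 (adjusted p = 0.421), a ratio of 0.799 with a 95% interval of 0.625 to 1.02. Without mutant replicate 3 the difference was -0.21. A second probe set gave -0.34 (adjusted p = 0.336), with all mutants just below all controls.

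Gstt1, of the theta class, which acts on small halogenated compounds, had the smallest estimated difference. It read 8.84, 8.41 and 8.42 in the mutants, against 8.23, 8.31 and 8.63 in the controls, and 2 of the mutants lay below control replicate 3. With limma the groups differed by 0.17 on the log2 scale with an SE of 0.16 (adjusted p = 0.682), a ratio of 1.12 with a 95% interval of 0.859 to 1.47. The interval spans both directions. The difference was 0.03 without mutant replicate 1, 0.09 without control replicate 1 and 0.28 without control replicate 3.

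**Figure D3:**
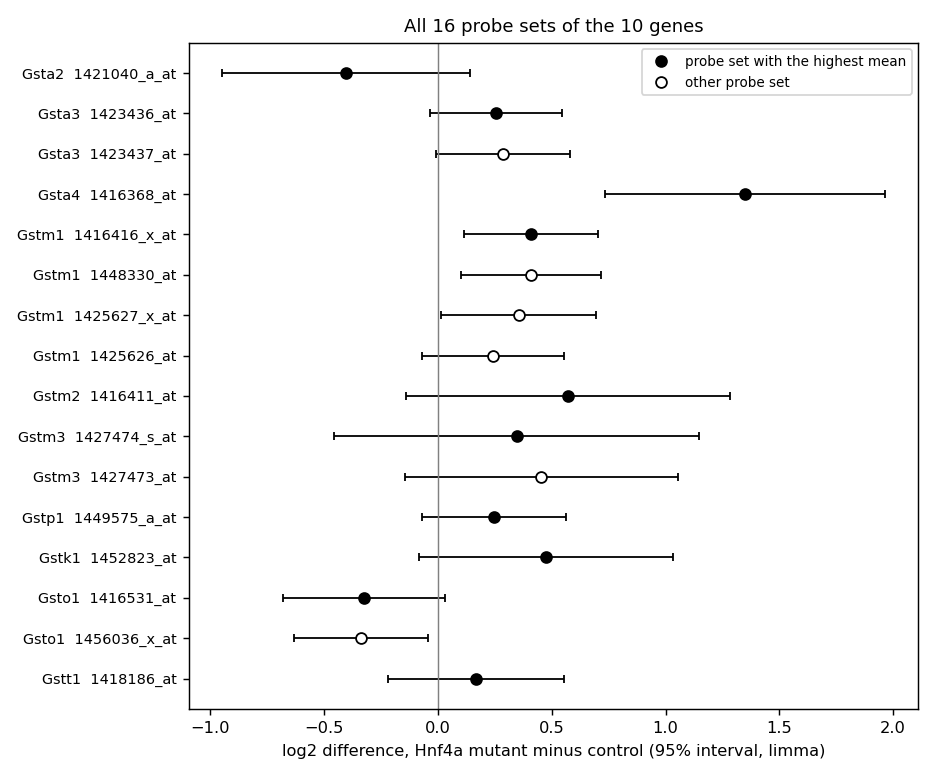
Log2 difference, Hnf4a mutant minus control, for all 16 probe sets of the 10 genes on the horizontal axis, where points are limma estimates with 95% intervals before adjustment, filled for the probe set with the highest mean of its gene and open for the others. The 6 other probe sets have the same sign as the probe set used for their gene.

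More than 1 probe set was present for 4 of the genes, and the sign was the same on all 6 of their other probe sets. With 1 array left out at a time no gene changed sign, and Gsta4 without control replicate 3 was the only gene and array for which the test was passed. Without mutant replicate 2 the log2 fold changes of Gsta4 (1.34), Gstm1 (0.42), Gstp1 (0.31) and Gsto1 (-0.29) stood beside 1.35, 0.41, 0.25 and -0.32 with all arrays. Those of Gsta2 (-0.39) and Gstt1 (0.24) stood beside -0.40 and 0.17. Those of Gstm3 (0.06), Gstk1 (0.28), Gstm2 (0.44) and Gsta3 (0.18) lay nearer to 0 than with all arrays (0.35, 0.48, 0.57 and 0.26).

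**Figure D4:**
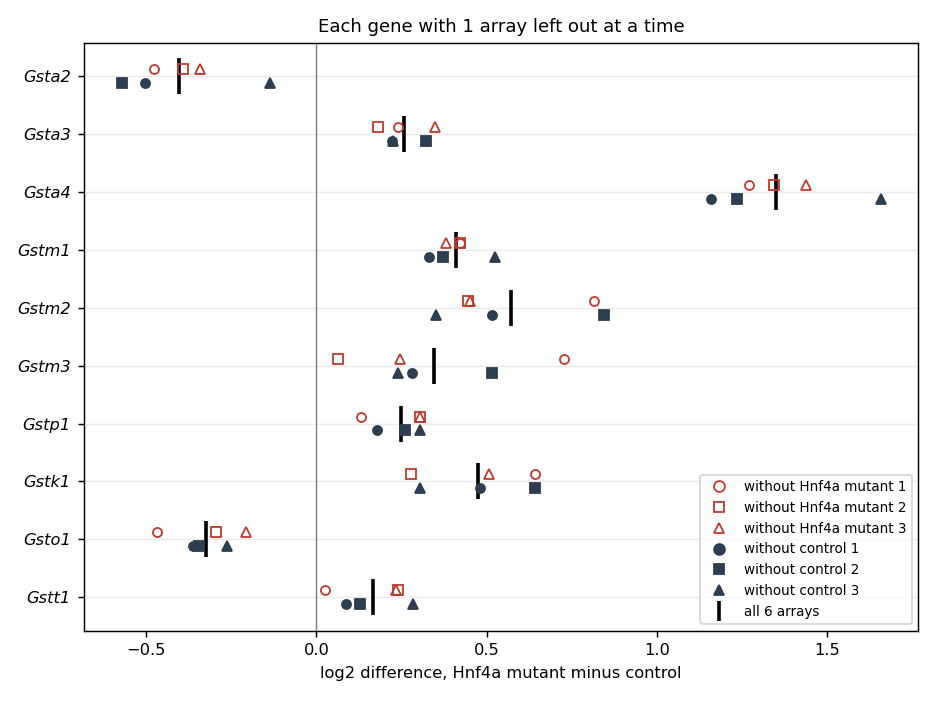
Log2 difference, Hnf4a mutant minus control, for each of the 10 genes with 1 array left out at a time on the horizontal axis, where open symbols leave out a mutant and filled symbols a control, the symbol shape gives the replicate left out, and the black bar is the value with all 6 arrays. Gsta4 lies between 1.16 and 1.66, and Gstm3 between 0.06 and 0.73.

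The 10 genes fell into different orders within the groups. In the controls, replicate 2 was the highest and replicate 3 the lowest for Gstm2, Gstm3 and Gstk1. Replicate 3 was the highest for Gsta2, Gsta4, Gstm1, Gstp1, Gsto1 and Gstt1. In the mutants, replicate 2 was the highest and replicate 1 the lowest for the same Gstm2, Gstm3 and Gstk1, while replicate 1 was the highest for Gsta2, Gsta4, Gstp1, Gsto1 and Gstt1. Gstm2, Gstm3 and Gstk1 were thus alike in which array of each group was high and which was low, and this is a description of 6 arrays with no test. Marker lists of epithelial cells also differed among arrays. Colonocyte markers had medians of -0.30, 0.25 and 0.17 in mutant replicates 1, 2 and 3, and of 0.04, 0.01 and -0.05 in control replicates 1, 2 and 3. Goblet cell markers had medians of 0.02, -0.15 and -0.46 in the same mutants, and of -0.03, 0.01 and 0.20 in the same controls. Their part in these orders was not tested.

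The other mu class genes lie in 1 cluster on chromosome 3 with Gstm1, Gstm2 and Gstm3, and 3 of them had wider differences than those. In the GRCm38.p6 annotation the order along the chromosome is Gstm5, Gstm7, Gstm6, Gstm3, Gstm2, Gstm1 and Gstm4. Gstm6 read 8.01, 8.98 and 8.86 in the mutants, against 6.09, 7.12 and 6.24 in the controls, a log2 difference of 2.13 with an SE of 0.35 (adjusted p = 0.0653). Gstm5 read 10.15, 10.65 and 10.42 in the mutants, against 9.37, 9.60 and 9.29 in the controls, a log2 difference of 0.99 with an SE of 0.15 (adjusted p = 0.0597). Gstm7 read 7.36, 7.80 and 7.46 in the mutants, against 6.20, 6.87 and 6.40 in the controls, a log2 difference of 1.05 with an SE of 0.20 (adjusted p = 0.0963), while a less intense probe set of Gstm7 gave 0.11. For all 3 the mutants lay above the controls, as they did for 14.5% of all genes, and none passed the test with all arrays. Without control replicate 2 Gstm6 (2.45, adjusted p = 0.0410) and Gstm7 (1.24, adjusted p = 0.0461) passed it. All 7 mu class genes had positive log2 fold changes, from 0.20 for Gstm4 to 2.13 for Gstm6. In 6 of the 7, Gstm1 being the exception, mutant replicate 2 was the highest and mutant replicate 1 the lowest mutant, and control replicate 2 the highest control. These genes are close in sequence and probes of one can take signal from another, so that the 7 values are not 7 independent ones.

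**Figure D5:**
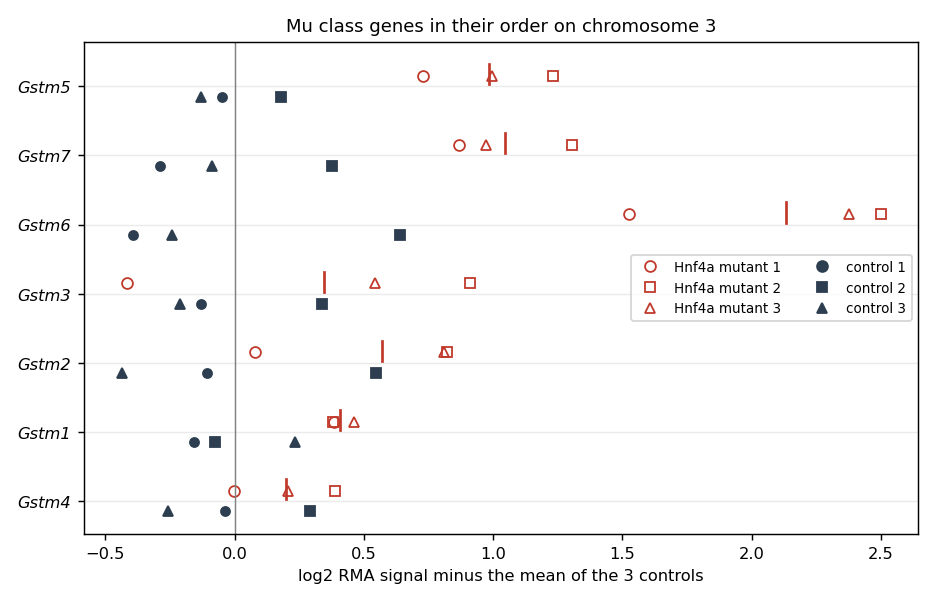
The 7 mu class genes in each array, from top to bottom in their order on chromosome 3 (the horizontal axis gives the log2 signal after subtraction of the control mean, open symbols are Hnf4a mutants, filled symbols are controls, the symbol shape gives the replicate, and the vertical bar is the mean of the mutants). The mutants lie apart from the controls for Gstm5, Gstm7, Gstm6 and Gstm1, and Gstm6 is furthest to the right at 2.13.

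Of 17 other glutathione transferases listed, the 4 further mu class genes among them, 15 were measured and none passed the test by limma. Before adjustment, at p of 0.05 or less, 5 of the 15 were higher and none lower, where 16.2% of all genes passed in either direction (1822 of 18193 higher), and SAM gave 4 at that level. Of the 15, 9 were positive and 6 negative, and the median log2 difference was 0.20. Next to the 3 mu class genes the smallest p belonged to Gsto2, an omega class enzyme (0.40, SE 0.10, adjusted p = 0.170), whose mean signal of 3.92 in the mutants and 3.52 in the controls lay within the range of the Y-linked genes in the controls. The microsomal transferases Mgst1 (-0.08, adjusted p = 0.852) and Mgst3 (0.08, adjusted p = 0.867), membrane enzymes of a separate family, had 95% intervals of -0.44 to 0.28 and -0.32 to 0.48, and Mgst2 had -0.39 (adjusted p = 0.469).

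Genes that make, recycle and use glutathione were mixed. Of 12 genes of glutathione synthesis and recycling none rose or fell by limma on the probe set used (4 higher and none lower before adjustment, at p of 0.05 or less, beside 16.2% of all genes in either direction). These 4 were Cbs, which condenses serine with homocysteine (1.37, adjusted p = 0.112), Oplah, which opens the ring of oxoproline (0.80, adjusted p = 0.151), Gsr and Slc7a11. Gclc and Gclm, the subunits of the enzyme that begins glutathione synthesis, had 0.12 (adjusted p = 0.817) and -0.20 (adjusted p = 0.495). Their less intense probe sets gave 0.17 (adjusted p = 0.705) and -0.31 (adjusted p = 0.309). Gsr, which regenerates reduced glutathione, had 0.60 (SE 0.14, adjusted p = 0.167). Slc7a11, of the transporter that brings in cystine, had 0.82 (SE 0.21, adjusted p = 0.193), with 3.76, 4.12 and 3.54 in the controls. Its other probe set rose, with 5.72, 5.06 and 4.84 in the mutants, against 3.01, 3.12 and 3.27 in the controls (2.07, SE 0.22, adjusted p = 0.0185). The control values of both probe sets lay in the range of the Y-linked genes, except for the 4.12 of control replicate 2. Of 10 measured genes of conjugate export and mercapturate formation none passed the test (1 higher and 2 lower before adjustment, beside the same 16.2%). Abcc1, a pump that exports glutathione conjugates, had 0.60 (SE 0.10, adjusted p = 0.0759), and its less intense probe set rose (0.78, SE 0.11, adjusted p = 0.0461). Dpep1, a dipeptidase that cleaves cysteinylglycine, had -1.76 (SE 0.30, adjusted p = 0.0730), and passed the test without control replicate 2 (-2.01, adjusted p = 0.0498). The other lower gene was Ggt6 (-0.42, adjusted p = 0.298), of the gamma-glutamyltransferase family. Oplah passed the test without mutant replicate 1 (1.00, adjusted p = 0.0399).

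Of 13 measured genes of NRF2 and its targets, 1 rose and none fell, and before adjustment 5 were higher and 1 lower (16.2% of all genes passed in either direction). The log2 fold changes were positive for 9 and negative for 4, with a median of 0.06. The gene that rose was Akr1b8, an aldo-keto reductase, at 11.49, 11.09 and 11.15 in the mutants, against 9.68, 9.50 and 9.57 in the controls (1.66, SE 0.13, adjusted p = 0.00631). It passed the test with any 1 array left out. Nfe2l2, which encodes NRF2 itself, had 0.02 (adjusted p = 0.969). Nqo1, a quinone reductase, had 1.11 (SE 0.20, adjusted p = 0.0903), and passed the test without control replicate 2 (1.31, adjusted p = 0.0374). Me1, malic enzyme, had 0.93 (adjusted p = 0.174), Cbr3, a carbonyl reductase, had 1.22 (adjusted p = 0.272), and Hmox1, heme oxygenase, had 0.33 (adjusted p = 0.312). Each had all mutants above all controls, by 0.04 for Cbr3 and 0.06 for Hmox1 at the nearest. Srxn1, sulfiredoxin, was the lower gene (-0.68, SE 0.14, adjusted p = 0.111), with all mutants below all controls. Its less intense probe sets gave -0.64, -0.56 and 0.003 (adjusted p of 0.134, 0.152 and 0.995 by limma), and on the last of them the groups overlapped. Of the 13 genes, 5 had all mutants above all controls and 2 had all below, beside 14.5% and 8.86% of all genes. Of 6 measured glutathione peroxidases none passed the test (none higher and 1 lower before adjustment, beside the same 16.2%). The lower one was Gpx7 (-0.53, adjusted p = 0.336, and -0.34 without mutant replicate 2). Gpx1, the cytosolic peroxidase, had 0.25 (adjusted p = 0.400) with all mutants above all controls, while 3 of the 6 had all mutants below all controls. Gpx3, a peroxidase secreted into the plasma, read 9.52, 6.92 and 9.64 in the mutants, against 10.05, 9.97 and 10.04 in the controls, lowest in mutant replicate 2, whose muscle and matrix markers were also low, and their part in that value was not tested.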

How the data were processed

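Total RNA from each animal was labelled and hybridised to 1 array. The authors normalized the 6 arrays by RMA, and the deposited values are log2 signals per probe set. The chip definition used is not given in the sources used here. The values were used as deposited, since RMA already places the arrays on a common scale. RMA shrinks differences of dim probe sets, and the number of arrays limits the precision. The 64 Affymetrix control probe sets were set aside and the other 45037 entered limma 3.58.1 (R 4.3.3; lmFit and eBayes, mutant minus control, no covariates) and p-values were adjusted by Benjamini-Hochberg over all of them, with a threshold of 0.05. Scripts were tested on simulated data. Symbols came from the platform annotation. Of the probe sets, 34945 had 1 symbol, 932 several and 9160 none, and the 34945 gave 18193 genes. All 10 genes are named with every probe set. From the other lists, genes past the test and up to 4 others with the smallest p were named, and Gclc, Gclm, Nfe2l2, Hmox1, Gstm4, Mgst1, Mgst2 and Mgst3 were added after their values were seen. The genes and lists were chosen with earlier results of these data known. An exact permutation test of 3 against 3 gives no two-sided p below 0.1. Alternatives covered arrays left out, the replicate number as a block, variance moderation, array weights, scaling, a filter on low signal, SAM and the choice of probe set.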

Additional observations from a re-analysis of the deposited data

How the results depend on the processing

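For the 10 transferases, 16 alternatives gave 159 values, since Gsta2 did not pass the filter on low signal (mean above the median of all probe sets), which 9 of the 10 genes passed. None of the 159 changed sign. The number of the 10 that rose was 0 to 1 with 1 array left out (the 1 was Gsta4 without control replicate 3) and 2 at an unadjusted SAM p of 0.05 or less, and 0 fell throughout. The number of other glutathione transferases called, 0 with all arrays, was 0 to 2 with 1 array left out, 1 with a trended and robust eBayes fit (Gstm5), 3 with array weights (Gstm5, Gstm6 and Gstm7), 2 with the mean of all probe sets of a gene (Gstm5 and Gstm6, in a fit over genes and so over fewer tests) and 4 by unadjusted SAM. In the other lists, Nqo1, Dpep1, Cbs and Abcc1 also passed the test with array weights (adjusted p of 0.0238, 0.0275, 0.0385 and 0.0441). Over all probe sets, 137 rose and 102 fell. With 1 array left out the counts were 22 to 130 and 17 to 206. They were 342 and 257 with array weights, and 3389 and 2154 by unadjusted SAM. After adjustment SAM called 0 and 0, its smallest adjusted p over all probe sets being 0.1, so that it could not call Hnf4a (-1.94) either and says nothing of stability. With the replicate number as a block 34 rose and 28 fell, and none of the 10 transferases passed. The labels give the groups the same numbers without saying that a number marks a shared litter. Same-numbered arrays had correlations of deviations from the group means of -0.02, 0.25 and -0.15 over 45037 probe sets. Only the replicates numbered 2 correlated best with each other, and the highest value was 0.38, between mutant replicate 1 and control replicate 3. With 3 arrays in each group these values cannot decide whether a number marks a shared litter or batch. Quantile normalization and median centring left the counts of transferases at 0. Gsta2 and Gsto2 lie at background, where a difference may be understated.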

Other observations

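A pair of transferase genes outside the lists were also on the arrays, and they were picked out after their values were seen. Gstp3, of the pi class, read 6.07, 6.21 and 5.66 in the mutants, against 5.94, 7.00 and 5.46 in the controls, a log2 difference of -0.16 with an SE of 0.38 (adjusted p = 0.880 by limma). Control replicate 2 was the high array, and the groups overlapped. Gstt4, of the theta class, read 4.62, 4.99 and 4.63 in the mutants, against 4.51, 4.70 and 4.38 in the controls, a log2 difference of 0.22 with an SE of 0.14 (adjusted p = 0.540 by limma).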
